A study of Homo sapiens with 18 samples.

Results

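Triptolide (TPL) changed the poly-A RNA of untransformed MCF10A-ErSrc cells, and the genes are described here by comparing 2 RNA-Seq libraries of cells with TPL with 2 of cells without it. MCF10A-ErSrc is an immortal, non-tumour human breast epithelial line that carries a fusion of the v-Src kinase with the ligand-binding part of the oestrogen receptor, which tamoxifen switches on. The untransformed cells (NT) received no tamoxifen, so the fusion was present but not switched on in all the cells compared. NT cells were given DMSO, the solvent, and NT + TPL cells were given 0.125 µM TPL, both for 4 h. The 4 libraries belong to a series of 18 samples, of which 8 are RNA-Seq libraries. The remaining RNA-Seq libraries come from cells transformed with tamoxifen (TAM) with DMSO or TPL. They entered the same fit, where they took part in the filter on counts, the scaling and the estimate of the spread. TAM libraries are also used below for levels with DMSO and for the difference between the TPL effects. All comes from a single line, and nothing in the labels ties a given replicate of NT to a given replicate of NT + TPL. Of 23604 genes listed in the files, 16948 had enough counts to be tested.

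TPL binds XPB, encoded by ERCC3, the DNA translocase of the general transcription factor TFIIH, which opens promoter DNA so that RNA polymerase II (RNAPII) can begin a transcript. When initiation is blocked, the level of each mRNA depends on how fast the existing molecules decay, so mRNAs with short half-lives drop soonest. Transcripts of immediate early genes, chemokines and feedback inhibitors are textbook cases of short-lived mRNAs, and many hold AU-rich elements in the 3′UTR that recruit the decay machinery. Transcripts of ribosomal proteins, respiratory chain subunits and other housekeeping genes are in general long-lived.

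The levels are FPKM, fragments scaled to transcript length and to the mapped reads of the library, which the authors estimated with RSEM. The fold changes, also written as log2 changes, are fitted log2 values of NT + TPL against NT from the deposited expected counts, with edgeR's quasi-likelihood test and Benjamini-Hochberg adjustment over the 16948 genes. Total expected counts lay between 7533770 and 8100750 per library, and more genes were listed with TPL, 19584 and 19878, than with DMSO, 18524 and 18560. Every library is scaled to its own total, so a rise is a rise in the share of poly-A RNA, and fewer cells, less RNA per cell and a changed share cannot be told apart in bulk RNA. Over all genes tested the median was 0.09, and it moved to 0.31 with upper-quartile scaling and to -0.26 when the libraries were scaled to equal GAPDH.

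Under the strict rule, which asks for an adjusted p no higher than 0.001 together with a log2 change of 1.2 or more in either direction, 206 genes rose with TPL (1.22% of those tested) and 460 fell (2.71%). At an adjusted p of at most 0.05 alone, 2919 genes rose (17.2%) and 3355 fell (19.8%). The genes that rose by the strict rule came from low levels, with a median of 2.57 FPKM in NT and 18.2 in NT + TPL, and those that fell came from higher ones, 22.9 FPKM in NT and 4.47 in NT + TPL. Both TPL libraries lay above both DMSO libraries in all 206 genes and below them in all 460. Over all 16948 genes tested this held for 6165 and 5545. The calls were made on the same libraries, so the separation of called genes is no further evidence. Protein-coding genes made up 188 of the 206 and 456 of the 460. When only the NT and NT + TPL libraries were fitted, 0 genes rose and 0 fell by the strict rule. At an adjusted p of 0.05 that fit gave 1768 rises and 2311 falls. The strict counts of the main fit were also lower with any library left out, where a single library remains in a group and the test has less power. Counts and adjusted p-values given below for such fits carry this loss of power together with the change of library, and the 2 were not separated. The median over all genes tested lay between 0.03 and 0.11 in these fits. With 2 libraries per group the strict rule calls few members of most lists, so the second rule is used below to count the members of gene lists. Each such count is to be read against the 17.2% of all genes that rose and the 19.8% that fell. With equal GAPDH the strict calls were 99 rises and 568 falls, and with upper-quartile scaling 265 and 305.

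**Figure D1:**
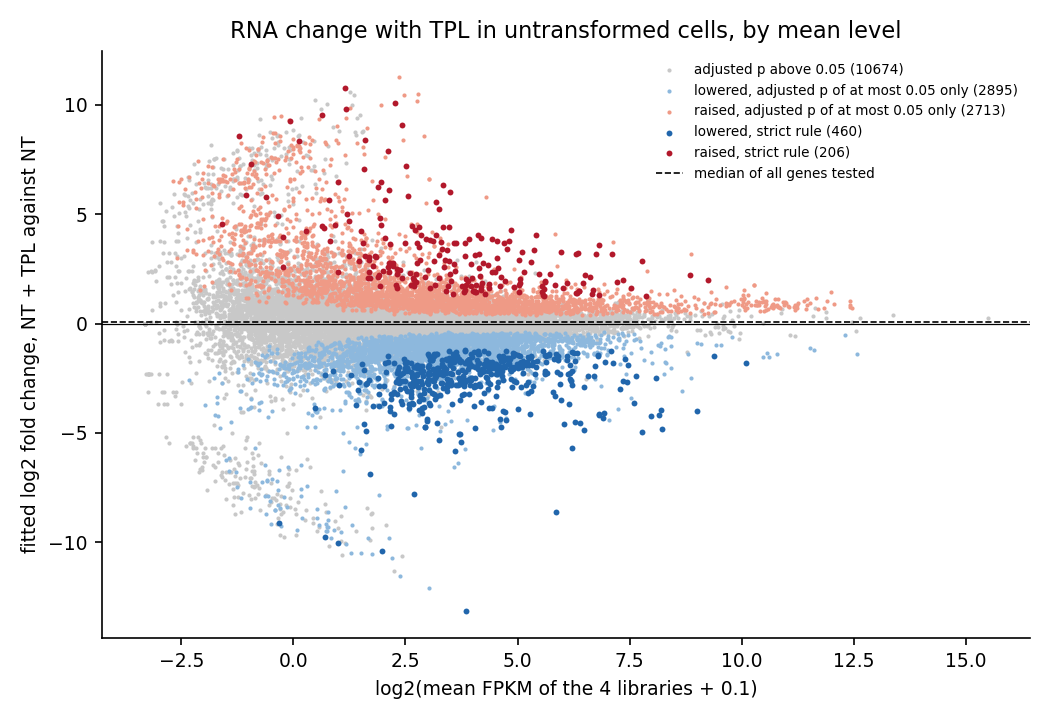
Fitted log2 fold change of NT + TPL against NT (vertical) against log2 of the mean FPKM of the 4 libraries plus 0.1 (horizontal), 1 point per gene tested. The 206 strict rises and the 460 strict falls are dark, genes past an adjusted p of 0.05 only are light, and the remaining genes are grey. The arms at the left with fold changes beyond 5 in size are genes at or near 0 in a group, where the fitted value is no measure of size.

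Among strict calls with a single entry in the files and a mean of at least 5 FPKM over the 4 libraries, the largest fall was that of DKK1, a secreted inhibitor of WNT signalling at chr10:54074041-54077802 on the plus strand (GRCh37). Its FPKM were 103 and 129 with DMSO and 0.29 in both TPL libraries. The fitted log2 change was -8.61 (SE 0.814, n = 2 and 2, edgeR adjusted p = 0.000628). DKK1 was near 0 with TPL, where the fitted value is no measure of size. Next came FST, which encodes follistatin, a secreted activin antagonist, with 26.5 and 21.2 FPKM in NT and 0.43 and 0.38 in NT + TPL. It changed by -5.85 (SE 0.277, adjusted p = 0.000178). Transcription factors of epithelial identity stood beside these secreted antagonists. GRHL3, which controls epidermal differentiation, held 26.01 and 25.96 FPKM in NT and 1.05 and 0.18 in NT + TPL. TP63, the master factor of basal epithelium, held 13.2 and 23.6 FPKM in NT and 0.64 and 0.28 in NT + TPL. Their log2 fold changes were -5.42 (SE 0.583) and -5.31 (SE 0.438). F3, tissue factor and the start of the extrinsic clotting cascade, was far more abundant, with 392 and 456 FPKM in NT and 11.2 and 16.7 in NT + TPL. Its log2 change was -4.95 (SE 0.268, adjusted p = 0.000195). The E3 ligase TRIM47 fell by 5.05 on the log2 scale, and the forkhead factor FOXF2, of 13.2 and 15.9 FPKM in NT, fell by 4.75. No TPL library reached a DMSO library in these genes, but that was a condition for being named here and is no result. Without a given library the fold changes of FST and F3 stayed between -6.00 and -5.70 and between -5.29 and -4.66.

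**Figure D2:**
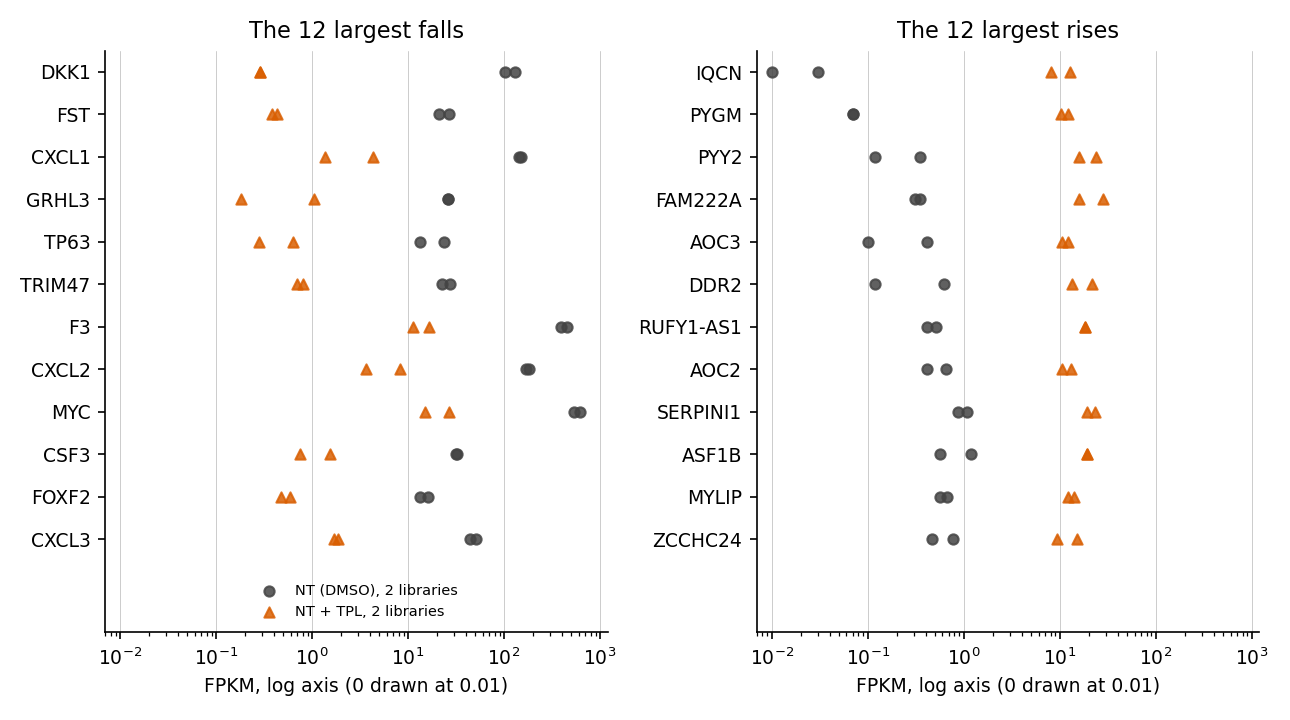
FPKM in each of the 2 NT (circles) and 2 NT + TPL (triangles) libraries, on a log axis, for the 12 largest falls and the 12 largest rises among strict calls whose mean reached 5 FPKM. The groups do not overlap in any of the 24 genes, which was a condition for being drawn, and the genes that rose began below 1.5 FPKM.

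Immediate early transcription factors, whose mRNAs are made within minutes of a growth signal and decay as fast, were measured through 21 genes, of which 13 fell and 3 rose at an adjusted p of 0.05, with a median log2 fold change of -1.40. FOS, a partner in the AP-1 dimer, held 503 and 576 FPKM in NT and 33.6 and 26.7 in NT + TPL. It changed by -4.17 (SE 0.198, adjusted p = 0.000178). JUN, its usual partner, held 141 and 175 FPKM in NT and 25.2 and 18 in NT + TPL, a log2 change of -2.88 (SE 0.216, adjusted p = 0.000342). FOS and JUN thus left groups far apart, and the fall of FOS was the larger. FOSB fell by 2.32, the orphan nuclear receptor NR4A2 by 2.21 and IER2 by 1.94 on the log2 scale. EGR1 was less uniform, with 412 and 555 FPKM in NT and 201 and 84.0 in NT + TPL. Its log2 change was -1.78 (SE 0.368, adjusted p = 0.0104), and without NT replicate 2 its adjusted p was 0.0582. The 3 members that rose, named after their values were seen, were IER5, EGR3 and NR4A3. IER5, an HSF1 regulator, held 19.6 and 20.9 FPKM in NT and 70.3 and 83.5 in NT + TPL, with a log2 change of 1.92 (SE 0.203, adjusted p = 0.000922). EGR3 was at 0.81 and 0.91 FPKM in NT and at 12.8 and 5.87 in NT + TPL, and NR4A3 at 0.04 and 0.14 and at 5.14 and 3.08. The list therefore held changes in both directions.

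Several feedback inhibitors of growth signalling and proteins that destroy mRNAs fell as well. DUSP1, a phosphatase that switches off MAP kinases, held 534 and 574 FPKM in NT and 40.0 and 32.1 in NT + TPL, a log2 change of -3.95 (SE 0.246, adjusted p = 0.000221). DUSP7 fell by 3.31 and DUSP4 by 1.74. Among 16 ERK phosphatases and SPRY/SPRED genes, 7 fell and 3 rose, and without NT + TPL replicate 2 the counts were 6 and 5. The AU-rich element binding proteins of the tristetraprolin family, which bring deadenylases to short-lived mRNAs, all fell. ZFP36 held 975.5 and 959 FPKM in NT and 78.4 and 43.8 in NT + TPL, with a log2 change of -4.0 (SE 0.269, adjusted p = 0.000259). ZFP36L1 changed by -4.23 (SE 0.306) and ZFP36L2 by -3.48 (SE 0.328). HNRNPD, which encodes the AU-rich element binding protein AUF1, fell by 1.70 on the log2 scale. Of the 23 genes of AU-rich element binding and deadenylation, 13 fell and 3 rose, with a median of -0.83, and without NT replicate 2 the counts were 8 and 1.

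Chemokines and cytokines were also among the genes that fell. CXCL1, CXCL2 and CXCL3 are ligands of CXCR2 that draw neutrophils, and their near-identical sequences can trade reads, so their separate values are uncertain. CXCL1 held 142 and 149 FPKM in NT and 4.32 and 1.35 in NT + TPL, a log2 change of -5.69 (SE 0.499, adjusted p = 0.000518). CXCL2 held 181 and 167 FPKM in NT and 8.34 and 3.69 in NT + TPL, with -4.87 (SE 0.311), and CXCL3 changed by -4.74 (SE 0.240). The falls of the 3 amounted to 51.7-, 29.2- and 26.7-fold, and no TPL library came near a DMSO one. CSF3, the granulocyte growth factor G-CSF, fell from 31.6 and 32.3 FPKM to 1.55 and 0.75, by 4.78 on the log2 scale. IL1B and CXCL8, named after their values were seen, fell by 4.52 and 3.84. Of 20 cytokine and chemokine genes tested, 11 fell and 3 rose, with a median of -1.42, against 0.09 for all genes. HBEGF, a ligand of the EGF receptor, went the other way and is described with the rises.

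Several feedback regulators and cofactors of NF-kB fell too. NFKBIA, which holds NF-kB in the cytoplasm, held 301 and 261 FPKM in NT and 49.0 and 41.6 in NT + TPL, a log2 change of -2.64 (SE 0.160, adjusted p = 0.000205). BCL3 fell by 4.42, NFKBIZ by 2.88 and TNFAIP3, the ubiquitin-editing enzyme A20, by 2.45 on the log2 scale. RELA, the activating subunit, changed by -0.98 (SE 0.224, adjusted p = 0.0152, and 0.0851 without NT replicate 2). In this group 9 of 15 genes fell and 1 rose, with a median of -0.84.

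The promoters of the 3 chemokines are shown because they hold the same NF-kB site at nearly the same place. Each line runs 5′ to 3′ from 150 bases before the start to 20 after it, from RefSeq on GRCh38.p14, and capitals mark GGGAATTTCC, a match to the kB pattern (GGGNN followed at once by TTTCC), 79, 78 and 79 bases before the start.
CXCL1, chr4:73869243-73869412, plus strand: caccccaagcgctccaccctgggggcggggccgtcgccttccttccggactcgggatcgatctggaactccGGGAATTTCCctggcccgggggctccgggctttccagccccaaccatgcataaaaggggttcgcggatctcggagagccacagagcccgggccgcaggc
CXCL2, chr4:74099176-74099345, minus strand: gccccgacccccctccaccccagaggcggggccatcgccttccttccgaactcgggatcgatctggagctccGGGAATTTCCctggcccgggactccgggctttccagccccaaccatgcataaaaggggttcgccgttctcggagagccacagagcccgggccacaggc
CXCL3, chr4:74038670-74038839, minus strand: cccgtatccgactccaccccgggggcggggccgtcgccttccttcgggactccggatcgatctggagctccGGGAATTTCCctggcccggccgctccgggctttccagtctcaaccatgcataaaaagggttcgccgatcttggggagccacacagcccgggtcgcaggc
A kB pattern (this or GGAATTTCC, either strand, patterns that overlap counted as 1 match) lay within the 250 bases before to 50 after the start in 2.23% of all 27305 promoters of the table, in 2.40% of those of tested genes, in 3.76% of 346 strict falls and in 3.38% of 148 strict rises.

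The 3′UTRs of short-lived mRNAs often hold the AU-rich nonamer TTATTTATT. A window of 30 bases around the first nonamer is shown for 4 genes that fell and for 2 that rose, FOS, CXCL1, CXCL2 and ZFP36 against PMAIP1 and IER5, from GENCODE release 44 on GRCh37 and the same genome, with that nonamer in capitals.
FOS, chr14:75748763-75748792, plus strand: tgtttttaatTTATTTATTaagatggattc
CXCL1, chr4:74736391-74736420, plus strand: agtcttctatTTATTTATTtattcattagt
CXCL2, chr4:74963306-74963335, minus strand: agtcttctatTTATTTATTtatttatttat
ZFP36, chr19:39899836-39899865, plus strand: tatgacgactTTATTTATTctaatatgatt
PMAIP1, chr18:57571193-57571222, plus strand: aggaataattTTATTTATTttgcctattta
IER5, chr1:181061579-181061608, plus strand: gtgtcttcctTTATTTATTtatttatttaa
Counting overlaps, the whole 3′UTRs held 1 nonamer in FOS, 3 in CXCL1, 5 in CXCL2, 1 in ZFP36, 1 in PMAIP1 and 3 in IER5, so the element is found on both sides. Over all tested genes with a 3′UTR, 9.56% held a nonamer, against 12.6% of 430 strict falls (54 genes) and 9.60% of 177 strict rises (17 genes).

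Among other transcription factors, the KLF family holds zinc-finger regulators of epithelial growth. Of 12 members 9 fell and 0 rose, with a median of -2.31. KLF6 held 210 and 215 FPKM in NT and 11.3 and 11.7 in NT + TPL, a log2 change of -4.20 (SE 0.166, adjusted p = 0.000178). KLF3 fell by 3.87, KLF5 by 2.64, and the change of KLF7 was -2.31 on the same scale. MYC held 532 and 623 FPKM in NT and 26.8 and 15.04 in NT + TPL, with a log2 change of -4.80 (SE 0.270, adjusted p = 0.000195). Its network partner MLX fell by 1.62. SOX4, SOX12 and FOXN2 fell by 2.50, 2.90 and 3.64, and 9 of 22 SOX and FOX genes fell while 3 rose, with 14 falls without NT + TPL replicate 1 and 1 rise without it or either NT library. Targets of the YAP and TEAD factors, which answer to cell contact and tension, fell in 8 of 15 cases and rose in 1, with AJUBA at -4.38 (SE 0.317) and AMOTL1 at -2.66 (SE 0.270), while the classical target CCN1 was at 78.4 and 127 FPKM in NT and at 78.7 and 64.2 in NT + TPL (log2 fold change -0.53, adjusted p = 0.105).

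Genes of the basal epithelial state changed by unequal amounts. KRT6B, a keratin of wounded epidermis whose close copies can share its reads, held 151 and 170 FPKM in NT and 7.36 and 6.30 in NT + TPL, with a log2 change of -4.56 (SE 0.146, adjusted p = 0.000163). LAMB3, a laminin chain of the basement membrane, fell from 266 and 286 FPKM to 42.6 and 27.0, by 3.0 on the log2 scale. KRT16 fell by 2.77 and KRT14 by 2.04. KRT5 and KRT17, the most abundant of the list, moved little. KRT5 held 6250 and 5776 FPKM in NT and 4630 and 3677 in NT + TPL, a log2 change of -0.54 (SE 0.131, adjusted p = 0.0185, and 0.087, 0.0573 and 0.0615 without NT replicate 1, NT replicate 2 and NT + TPL replicate 2). KRT17 changed by -0.33 (SE 0.141, adjusted p = 0.108). Among 29 keratins and basal adhesion genes, 15 fell and 2 rose, with a median of -0.70. In a list of 14 regulators of the epithelial-mesenchymal transition, ESRP2, a splicing factor of epithelia, fell by 4.06, and SNAI1, a repressor of E-cadherin, rose from 1.79 and 0.93 FPKM to 21.9 and 14.4, by 3.71 (SE 0.398, adjusted p = 0.000956).

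Among RNA processing genes, of 29 SR proteins, CLK kinases and hnRNPs, 16 fell and 1 rose, with a median of -0.62. SRSF3 held 86.6 and 82.2 FPKM in NT and 16.7 and 16.2 in NT + TPL, a log2 change of -2.26 (SE 0.131, adjusted p = 0.000197). SRSF7 fell by 2.54 and HNRNPR by 1.75, and the abundant HNRNPC, with 222 and 210 FPKM in NT and 246 and 204.9 in NT + TPL, changed by 0.05 (SE 0.136). HSPA8, the constitutive HSP70 chaperone, held 1723 and 1689 FPKM in NT and 453 and 520 in NT + TPL, with -1.81 (SE 0.139, adjusted p = 0.000348). Its relative HSPA2 rose from 0.92 and 1.05 FPKM to 14.3 and 14.4, by 3.85 (SE 0.206). In the cell cycle, CCND1, the cyclin of early G1, fell from 56.3 and 58.4 FPKM to 13.3 and 17.5, by 1.90 (SE 0.193 on the log2 scale), and CCND2 fell by 2.68. Cholesterol synthesis moved in both directions, with 12 of 23 genes lower and 6 higher. HMGCS1 and SQLE, earlier in the route, fell by 2.16 and 2.66, whereas TM7SF2 and HSD17B7, of later steps, rose by 2.54 and 3.07. The rises of that list numbered 3, 2 and 4 without NT replicate 1, NT replicate 2 and NT + TPL replicate 2, and the falls 8 without NT replicate 2.

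Stress genes of the unfolded protein response were split as well. DDIT4, an inhibitor of mTORC1, fell from 58.2 and 62.7 FPKM to 5.43 and 2.79, by 3.89 (SE 0.270, adjusted p = 0.000274). TRIB3 fell by 2.70 and XBP1 by 1.49. ATF4, the factor that drives many of them, held 304 and 261 FPKM in NT and 472 and 467 in NT + TPL, a log2 change of 0.69 (SE 0.132, adjusted p = 0.00791, and 0.0654 without NT replicate 2). In all 7 of 19 genes rose and 5 fell, and without NT replicate 1 there were 4 rises and 5 falls.

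**Figure D3:**
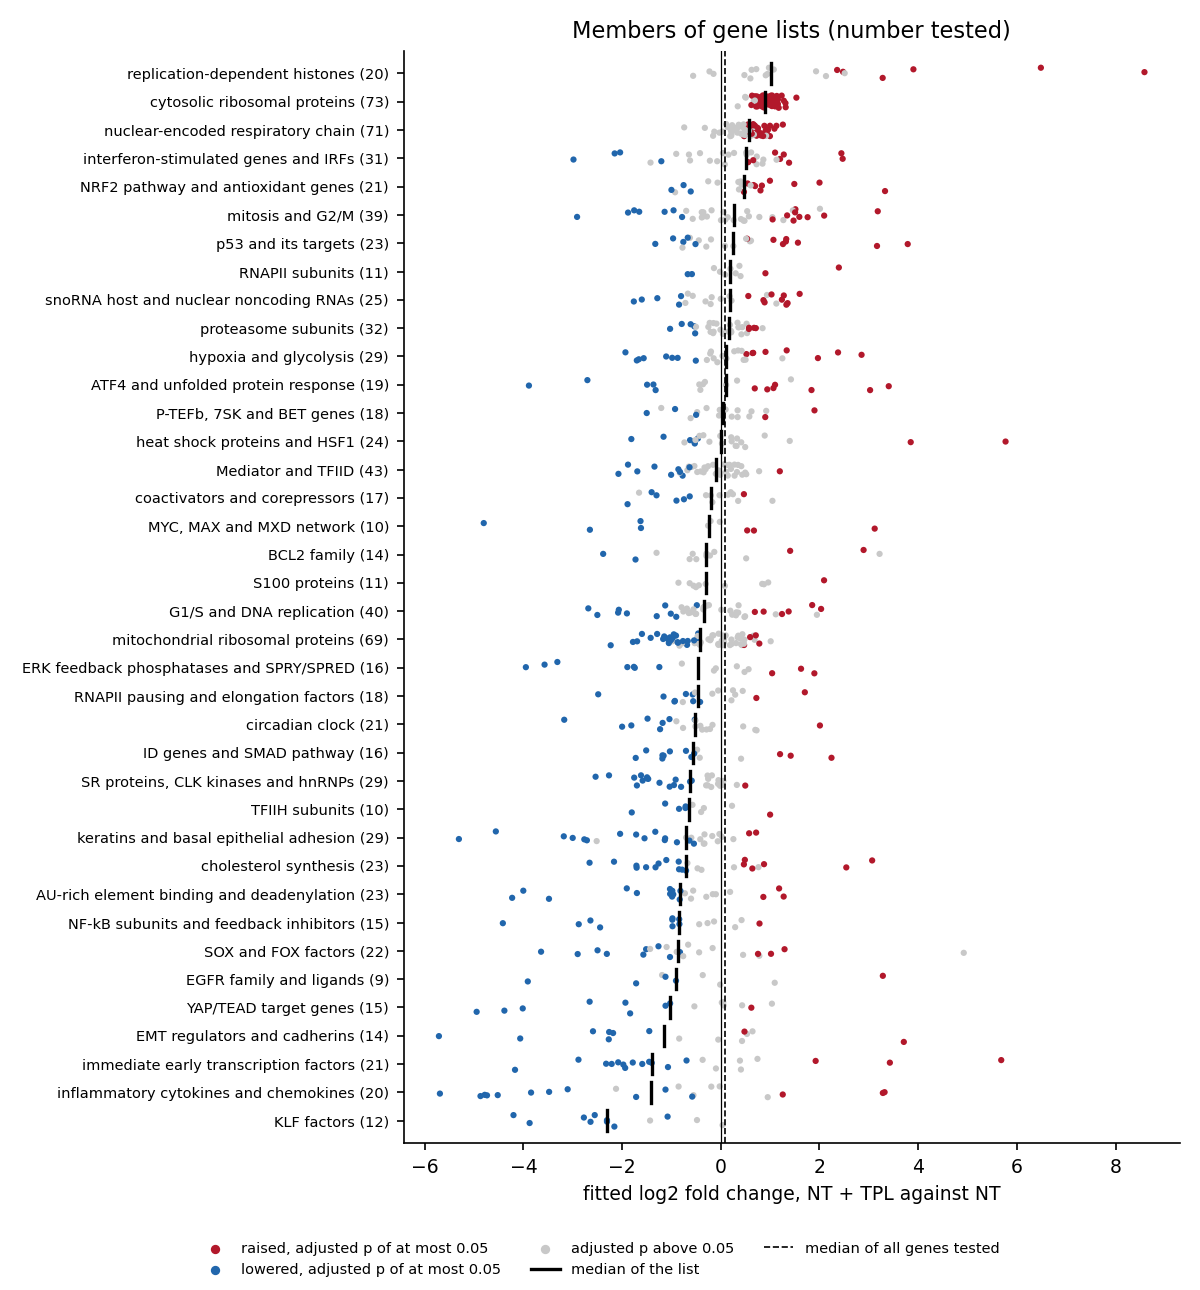
Fitted log2 fold change of each member (points) of 38 gene lists, ordered by the median (black bar), with members past an adjusted p of 0.05 in red or blue, a dashed line at the median of all genes and the number tested in brackets. KLF factors, cytokines and immediate early factors lie lowest, with medians of -2.31, -1.42 and -1.40, and histones and cytosolic ribosomal proteins highest, with 1.03 and 0.90. The histone median covers only 20 genes, since 33 of 54 listed were not tested.

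By the same rule, the largest rises were in genes hardly seen with DMSO. IQCN was listed at 0 and 0.03 FPKM in NT and at 12.8 and 8.18 in NT + TPL, at least 114-fold higher against a floor of 3 counts per library. PYGM, the muscle form of glycogen phosphorylase, held 0.07 FPKM in both NT libraries and 10.2 and 12.2 in NT + TPL, at least 104.8-fold higher. PYY2, a pseudogene of the peptide YY family, was at least 56.7-fold higher. These 3 genes had at most 3 counts in either NT library, so the sizes are lower bounds. FAM222A went from 0.35 and 0.31 FPKM to 28.2 and 15.8, a log2 change of 6.03 (SE 0.357, adjusted p = 0.000197). DDR2, a collagen receptor tyrosine kinase, went from 0.12 and 0.62 to 21.4 and 13.5, with 5.54 (SE 0.549, adjusted p = 0.000727). AOC3 and AOC2, amine oxidases that lie 477 bases apart on the plus strand of chromosome 17 (AOC2 at chr17:40996597-41002724, GRCh37), rose by 5.84 (SE 0.477) and 4.46 (SE 0.274). ASF1B, a histone H3-H4 chaperone of dividing cells, went from 1.2 and 0.57 FPKM to 19.2 and 19.0, by 4.41 (SE 0.294, adjusted p = 0.000253). MYLIP, a ubiquitin ligase for the LDL receptor, rose by 4.41, the neuronal serpin SERPINI1 by 4.42, the antisense transcript RUFY1-AS1 by 5.25 and ZCCHC24 by 4.28. In all 12 the TPL libraries lay above 8 FPKM and the DMSO libraries below 1.5.

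Several genes of growth factor signalling, growth arrest and cell death rose, most of them from levels already measurable in NT cells. HBEGF, the EGF receptor ligand, held 13.9 and 9.30 FPKM in NT and 129 and 99.5 in NT + TPL, a log2 change of 3.28 (SE 0.267, adjusted p = 0.000408). GADD45B, which relays stress to p38, held 17.2 and 25.5 FPKM in NT and 185 and 200.1 in NT + TPL, with 3.17 (SE 0.208, adjusted p = 0.000246). GDF15, a secreted stress factor, began as low as some genes hardly seen with DMSO. It went from 1.02 and 1.23 to 20.2 and 11.6 FPKM, by 3.79 (SE 0.388, adjusted p = 0.000811). PMAIP1, which encodes NOXA, a BH3-only protein that binds MCL1, held 7.69 and 7.77 FPKM in NT and 55.02 and 60.4 in NT + TPL, with 2.89 (SE 0.148, adjusted p = 0.000192). MCL1 itself was at 189 and 209 FPKM in NT and at 158 and 110 in NT + TPL, a log2 change of -0.57 (SE 0.186, adjusted p = 0.0502, and 0.00735 without NT + TPL replicate 1). CDKN1A, the CDK inhibitor p21, held 91.1 and 93.1 FPKM in NT and 315 and 234 in NT + TPL, by 1.56 (SE 0.174, adjusted p = 0.00105). Of 23 genes of the p53 pathway 8 rose and 5 fell, with a median of 0.26 (-0.08 with equal GAPDH), and the falls numbered 2 without NT replicate 2 and 3 without NT + TPL replicate 2. SFN, or 14-3-3 sigma, was the most abundant of the list and fell from 2440 and 1880 FPKM to 895 and 836, by 1.33 (SE 0.191, adjusted p = 0.00274). In the BCL2 family, PMAIP1 was the larger of 2 rises among 14 genes (4 without NT replicate 1), and BOK, which fell by 2.38, was the larger of 2 falls.

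Some antioxidant and iron-storage genes rose. SQSTM1, the autophagy receptor p62, held 67.4 and 62.7 FPKM in NT and 269 and 254 in NT + TPL, a log2 change of 2.0 (SE 0.118, adjusted p = 0.000197). FTL and FTH1, the chains of ferritin, rose by 0.83 (SE 0.127, adjusted p = 0.00347) and 0.66 (SE 0.141, adjusted p = 0.0117, and 0.0801 without NT replicate 2). Among 21 genes of the NRF2 pathway and antioxidant defence 10 rose and 3 fell, with a median of 0.47, and the counts were 5 and 1 without NT replicate 2 and 4 and 3 with equal GAPDH, where the median was 0.12. The hypoxia and glycolysis list was even, with 8 of 29 genes higher and 8 lower, and 3 were higher without NT replicate 1, 4 higher and 5 lower without NT replicate 2, and 5 lower without NT + TPL replicate 2. HIF1A, the oxygen-sensing factor, was its largest fall, by 1.93 (SE 0.303, adjusted p = 0.0038), and was named after its values were seen. PFKFB3, which makes the activator of phosphofructokinase, rose from 7.46 and 7.56 FPKM to 40.2 and 35.4, by 2.38 (SE 0.134), and ALDOC by 2.85. The abundant GAPDH changed by 0.35 (SE 0.139, adjusted p = 0.0875), with 2934 and 2443 FPKM in NT and 3708 and 3197 in NT + TPL. IRF7 rose by 2.44 and BAMBI, a decoy receptor of TGF-beta, by 2.24, and the clock repressor CRY2 by 2.01.

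The genes of the transcription machinery that TPL acts on did not move together. POLR2A, the largest subunit of RNAPII, held 71.3 and 78.0 FPKM in NT and 527 and 268 in NT + TPL, a log2 change of 2.39 (SE 0.312, adjusted p = 0.00187). HEXIM1, which with 7SK RNA holds the elongation kinase P-TEFb inactive, rose from 21.4 and 20.02 FPKM to 76.8 and 78.4, by 1.90 (SE 0.122, adjusted p = 0.000238). PCF11, a termination factor, rose from 5.27 and 4.83 to 17.9 and 15.2 FPKM, by 1.70 (SE 0.149, adjusted p = 0.000511). Among 10 TFIIH subunits 5 fell and 1 rose, with a median of -0.64, and the falls numbered 3, 2, 4 and 3 without NT replicate 1, NT replicate 2, NT + TPL replicate 1 and NT + TPL replicate 2. ERCC3, named because its product binds TPL, was at 15.2 and 18.1 FPKM in NT and at 10.7 and 9.68 in NT + TPL, a log2 change of -0.71 (SE 0.147, adjusted p = 0.0104). GTF2H4, for the p52 partner of XPB and named after its values were seen, was at 15.9 and 14.5 and at 4.81 and 3.96, with -1.80 (SE 0.204, adjusted p = 0.00111). CCNH changed by -0.85 (adjusted p = 0.0198, and 0.0791, 0.0724 and 0.0546 without NT replicate 1, NT replicate 2 and NT + TPL replicate 2). Among pausing and elongation factors 8 of 18 fell and 2 rose, with 4 falls without either NT library. Of 18 genes of P-TEFb, 7SK and BET proteins 3 fell (16.7%) and 2 rose (11.1%). Of 43 Mediator and TFIID subunits 9 fell (20.9%) and 1 rose (2.33%). Over all genes tested 19.8% fell and 17.2% rose, so the falls in these 2 lists were near the share of all genes.

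The promoters of GADD45B, GDF15 and FOS hold a TATA box and are shown in the same way as above, with TATAAA in capitals 31, 29 and 33 bases before the start.
GADD45B, chr19:2475977-2476146, plus strand: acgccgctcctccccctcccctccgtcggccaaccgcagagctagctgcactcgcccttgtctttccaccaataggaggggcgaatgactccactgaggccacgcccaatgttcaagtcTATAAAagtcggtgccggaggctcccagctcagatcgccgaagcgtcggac
GDF15, chr19:18386008-18386177, plus strand: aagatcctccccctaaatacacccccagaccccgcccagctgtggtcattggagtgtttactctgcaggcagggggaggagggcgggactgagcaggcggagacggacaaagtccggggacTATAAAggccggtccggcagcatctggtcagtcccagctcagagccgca
FOS, chr14:75278678-75278847, plus strand: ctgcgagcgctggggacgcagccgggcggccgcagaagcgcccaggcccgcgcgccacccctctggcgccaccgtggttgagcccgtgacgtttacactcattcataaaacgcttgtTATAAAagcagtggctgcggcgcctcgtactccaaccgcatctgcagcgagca
TATAAA on the sense strand between 45 and 11 bases before the start was found in 14 of 148 strict rises (9.46%), in 10 of 346 strict falls (2.89%) and in 2.01% of all tested genes with a promoter in the table, against 2.68% of all 27305 promoters. The 14 are ADRA2A, AOC2, HAP1, GDF15, TNFSF9, NRARP, GADD45B, NXF1, ECM1, GTF2B, NUSAP1, HEXIM1, UBE2S and SPTAN1. Of these GTF2B and NXF1 were picked after their values were seen. GTF2B, which encodes the initiation factor TFIIB, went from 17.7 and 13.4 FPKM to 65.5 and 81.9, and NXF1, the main mRNA export receptor, went from 60.8 and 50.6 to 374 and 385. Genes past an adjusted p of 0.05 only held the box in 2.95% of the rises and 1.14% of the falls. A match to letters is a description and not a measured site.

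Cytosolic ribosomal protein mRNAs rose by small amounts. Of 73 cytosolic ribosomal protein genes tested, 68 rose at an adjusted p of 0.05 and 0 fell, with a median log2 fold change of 0.90 and all 73 between 0.34 and 1.53. RPS2 held 4713 and 3795 FPKM in NT and 6555 and 7348 in NT + TPL, with 0.71 (SE 0.162, adjusted p = 0.0156, and 0.101 and 0.0517 without NT replicate 2 and NT + TPL replicate 2). Of 71 nuclear-encoded respiratory chain genes, 34 rose and 0 fell, with a median of 0.58 and a range of -0.74 to 1.26, and COX6A1 changed by 0.55 (SE 0.134, adjusted p = 0.0187, and 0.055, 0.125 and 0.0521 without NT replicate 1, NT replicate 2 and NT + TPL replicate 2). Of 32 proteasome subunits 4 rose and 5 fell, with a median of 0.17, and 0 rose without NT replicate 1, NT replicate 2 or NT + TPL replicate 2 and 9 without NT + TPL replicate 1. The ribosomal and respiratory shifts rest on the spread and the scaling. Without NT replicate 1 the ribosomal rises numbered 16, without NT replicate 2 they numbered 0, without NT + TPL replicate 1 they numbered 71 and without NT + TPL replicate 2 they numbered 22, while the median stayed between 0.55 and 1.17. The respiratory rises were 11, 2, 43 and 6 in the same order. With equal GAPDH 2 ribosomal and 1 respiratory gene rose and 2 respiratory genes fell, and the medians were 0.57 and 0.23 against -0.26 for all genes. The TPL libraries also differed here, since the summed FPKM of the ribosomal list was 94684 and 76790 in NT and 128711 and 184441 in NT + TPL.

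Mitochondrial ribosomal proteins did not follow their cytosolic counterparts. Of 69 genes, 26 fell and 4 rose, with a median of -0.43, and MRPS26 fell from 32.8 and 25.98 FPKM to 6.10 and 6.44, by 2.23 (SE 0.214, adjusted p = 0.000664). Without NT replicate 1 there were 13 falls and 1 rise in that list, and without NT replicate 2 there were 17 and 0. Replication-dependent histones, whose main transcripts lack a poly-A tail and were thus caught only in part, rose in 6 of 20 genes and fell in 0, with a median of 1.03. With a library left out the median lay between 1.07 and 1.65. Of 54 histone genes listed, 33 were not tested, and members near 0 in NT could enter the test through their TPL counts. The tested set can thus lean towards rises. H2BC5 went from 14.9 and 6.74 FPKM to 51.7 and 47.1, by 2.48 (SE 0.390, adjusted p = 0.00385). H2BC6, named after its values were seen, was listed at 0 in both NT libraries and at 16.5 and 13.2 FPKM with TPL. Host genes of snoRNAs and other nuclear noncoding RNAs rose in 9 of 25 cases and fell in 5, with 4 rises without NT replicate 1, 1 without NT replicate 2 and 5 without NT + TPL replicate 2. SNHG29 held 658 and 546 FPKM in NT and 926 and 1255 in NT + TPL (0.89, SE 0.199, adjusted p = 0.014, and 0.0966 without NT replicate 2). MALAT1, which stays in the nucleus, was at 490 and 298 FPKM in NT and at 295 and 1193 in NT + TPL, so its groups overlapped. Of 1492 long noncoding RNA genes tested 321 rose (21.5%) and 55 fell (3.69%), with a median of 0.70, while of 12667 protein-coding genes 18.1% rose and 24.03% fell, with a median of 0.00. Their median NT levels were 1.745 and 6.675 FPKM. In the lowest of 4 bins of NT level, over genes of all types, 26.3% rose and 2.51% fell, so level and type were not separated. Of 870 tested genes with at most 3 counts in both NT libraries, 399 rose at an adjusted p of 0.05. Such genes can enter the test through their TPL counts.

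Structure and level of a gene went with the size of its change. The 14791 tested genes with a single entry in the files were split into 4 bins of equal size by each property in turn. By mRNA length the median log2 fold change ran 0.43, 0.16, -0.03 and -0.13 from the shortest to the longest bin, with 24.5% of the shortest and 15.2% of the longest past an adjusted p of 0.05 upward and 12.3 and 26.4% downward. Those medians depend on the libraries: the shortest bin was at 0.27 without NT + TPL replicate 2, the second at 0.07 without it, and the longest at -0.24 without NT replicate 1 or NT + TPL replicate 1, -0.06 without NT + TPL replicate 2 and -0.02 without NT replicate 2. By 3′UTR length it ran from 0.29 to -0.14, by the number of ATTTA pentamers in the 3′UTR from 0.27 to -0.17, by exon number from 0.35 to -0.10 and by GC content of the promoter from 0.31 to -0.15. With each library left out, the lowest of these bins lay between 0.21 and 0.35, 0.18 and 0.32, 0.20 and 0.40, and 0.19 and 0.31 in the same order, and the highest between -0.24 and -0.06, -0.27 and -0.08, -0.20 and -0.02, and -0.23 and -0.11, with the smaller sizes without NT replicate 2 or NT + TPL replicate 2. The level with DMSO went furthest with the change, at 0.97, 0.18, -0.25 and -0.22 from the lowest bin to the highest. The DMSO level of NT enters the fold change itself, and so the level in TAM cells with DMSO, which shares no library with the comparison, was used as well and gave 0.90, 0.23, -0.26 and -0.21. Genes low with DMSO in both states could still enter the test through their TPL counts, so the lowest bin can lean towards rises. In genes with at least 10 counts in every library the medians by TAM level were 0.50, -0.05, -0.32 and -0.16, a setting chosen after seeing the data. Across genes Spearman's rho was -0.407 with the NT level, -0.381 with the TAM level and -0.166 with transcript length, over genes that share the same 4 libraries. The properties are tied to each other and were not separated. Equal GAPDH moved the bins by mRNA length to between 0.07 and -0.51, with the order kept.

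**Figure D4:**
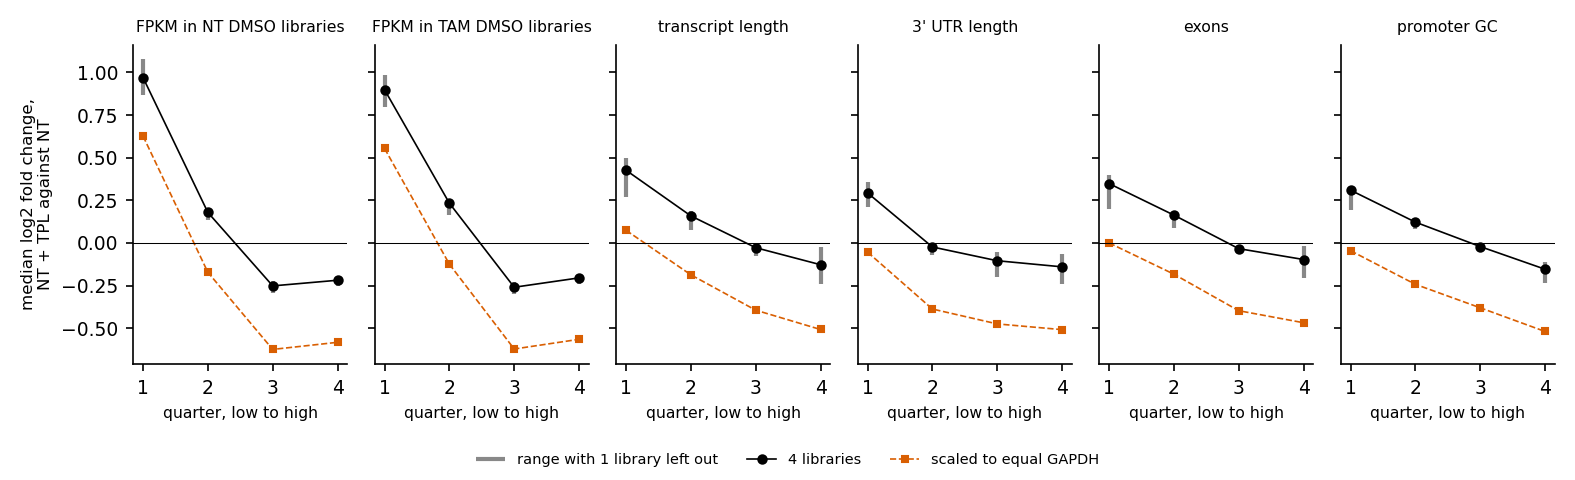
Median log2 fold change of NT + TPL against NT (vertical) by bin of each gene property, 4 bins of equal size, low to high (horizontal), for genes with a single entry. Black points use the 4 libraries, grey bars span the values with each library left out, and orange squares are scaled to equal GAPDH. The medians fall from 0.97 to -0.22 by NT level and from 0.43 to -0.13 by transcript length.

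RNAPII at start sites was compared with the RNA through the authors' peak lists, 11222 peaks for NT and 8653 for NT + TPL on hg19, which were made from ChIP-Seq samples and not from the RNA libraries. There is 1 list per condition, whose peak names carry a replicate 1 tag, with no height or depth, so these shares carry no test. Genes were grouped by their RNA change and a start site, that of the Ensembl canonical transcript, counted when it lay within a listed peak. The median peak length was 632 bases in the NT list and 553 in the NT + TPL list. The paper also reports that TPL displaced the main RNAPII peak to the 5′ side of the start. A peak that narrowed or moved off the start base would count as absent, and this was not tested. Of 431 strict falls, 83.5% had a peak in NT and 49.0% in NT + TPL, and of 360 start sites with a peak in NT 209 (58.1%) were also in the NT + TPL list. Of 185 strict rises, 60.5% had a peak in NT and 62.7% in NT + TPL, and 105 of 112 (93.8%) were in both. Of genes past neither rule, 57.7% had a peak in NT and 46.9% in NT + TPL, both below the shares of either strict class, while the part of the NT peaks found in both lists, 78.0%, lay between those of the strict classes. The order of that last share held among genes of the highest of the 4 bins of TAM DMSO level, where 89.5% of the NT peaks of strict rises, 85.6% of those of uncalled genes and 66.9% of those of strict falls were also listed with TPL. Counting any annotated start site, the shares were 88.4 and 52.4% for strict falls and 63.2 and 66.5% for strict rises.

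**Figure D5:**
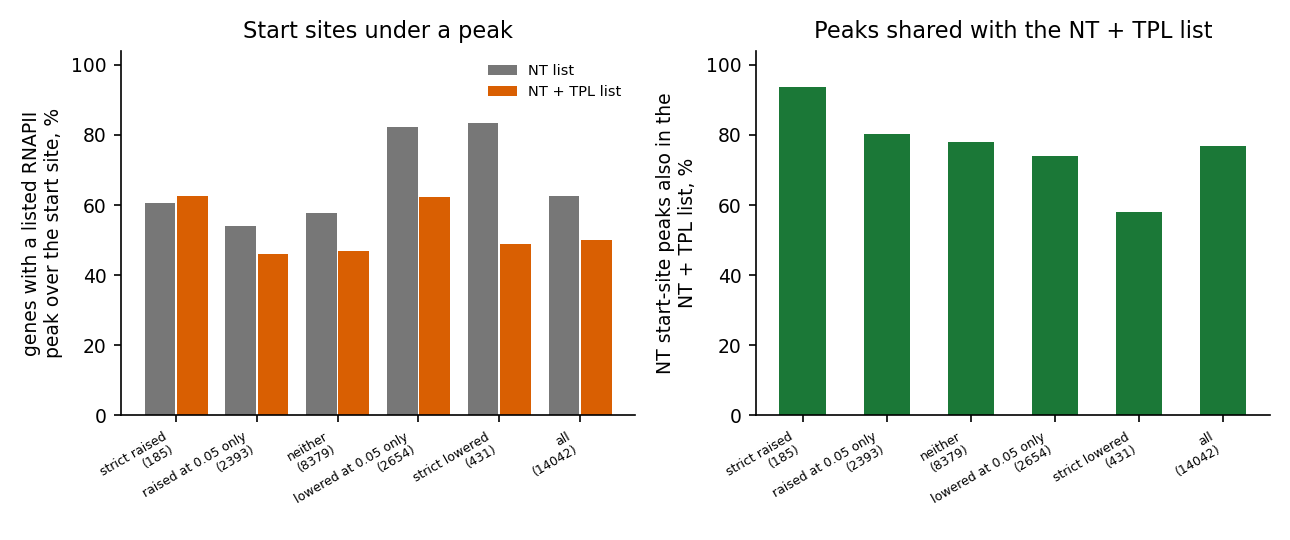
Left, percent of genes whose canonical start site lies in a listed RNAPII peak of NT (grey) or NT + TPL (orange), by class of RNA change, with the number of genes in brackets. Right, percent of the NT start-site peaks that are also in the NT + TPL list, which is 93.8% for strict rises and 58.1% for strict falls. There is 1 list per condition, so no error bars are drawn.

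By gene, the peak lists did not simply follow the RNA. DKK1, FST, F3, CXCL1, CXCL2, CXCL3, CSF3, LAMB3 and KRT6B had a listed peak over the start base in NT and none over that base in NT + TPL. FOS, MYC, DUSP1, ZFP36, KLF6, NFKBIA and HSPA8 also fell in RNA and had a peak in both lists. PMAIP1, HBEGF, GADD45B, HEXIM1, POLR2A, SQSTM1 and SNAI1 had a peak in both. HSPA2, ALDOC and RUFY1-AS1 had one in NT + TPL only, while IQCN, PYGM, AOC2, AOC3 and DDR2 had none in either.

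The identity of the cells was checked through marker genes fixed with the lists. Basal markers were abundant, with a summed FPKM of 16101 and 14220 in NT and 12033 and 10363 in NT + TPL, and 4 of 8 fell while 1 rose. Luminal markers summed to 1050 and 983 in NT and 961 and 826 in NT + TPL, mostly from KRT8 and KRT18, and 3 of 6 fell while 1 rose (1 fell without NT replicate 2). ESR1 was at 200 and 248 FPKM in NT and at 128 and 78.7 in NT + TPL (log2 fold change -1.13, SE 0.253, adjusted p = 0.014, and 0.0792 without NT replicate 2), and reads of the fusion, which carries part of this receptor, cannot be told apart from it. Fibroblast markers summed to between 7.83 and 12.8 FPKM and endothelial markers to between 1.02 and 2.74 over the 4 libraries, and PDGFRA was listed at 0 in all of them. Leukocyte markers summed to 43.1 and 28.4 FPKM in NT and 59.0 and 69.3 in NT + TPL, mostly LYZ, and 2 of 4 rose (1 without NT replicate 2 or NT + TPL replicate 1). Of these ITGAM went from 0.03 and 0.05 FPKM to 6.16 and 5.20, at least 73.2-fold higher, while PTPRC, which marks all leukocytes, was at 0.58 and 0.34 in NT and at 1.16 and 1.70 in NT + TPL (adjusted p = 0.123). The part of other cells in these changes was not tested.

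The genes the study itself names for TPL include several already given. It chose them on these samples, so their direction is no independent evidence. Of 20 tested with a single entry, 14 rose and 5 fell, with a median of 1.24, and without NT replicate 2 or NT + TPL replicate 2 there were 2 falls. CEMIP2, a cell-surface hyaluronidase, rose from 3.0 and 4.3 FPKM to 56.4 and 40.1, by 3.70 (SE 0.234, adjusted p = 0.000224). CLU, the chaperone clusterin, rose from 56.4 and 52.0 to 214 and 163 FPKM, by 1.79 (SE 0.234, adjusted p = 0.0019). PHACTR4 rose by 1.29, the SMAD corepressor SKI by 1.2 and ID2 by 1.42. VEGFA fell by 0.51 (adjusted p = 0.0228, and 0.125 and 0.0778 without NT replicate 2 and NT + TPL replicate 2), and EGR4 was at 1.45 and 1.96 FPKM in NT and at 3.22 and 2.54 in NT + TPL (adjusted p = 0.217). F2R, a thrombin receptor, has 2 entries in the files, of which 1 was at 0 in NT and at 15.7 and 4.48 FPKM with TPL (adjusted p = 0.0376, and at least 0.0642 with any library left out), and the other was at 4.29 and 5.72 and at 3.11 and 12.5 (adjusted p = 0.4, and 0.0116 without NT + TPL replicate 1), so its change is uncertain.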

How the data were processed

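RNA-Seq and RNAPII ChIP-Seq of MCF10A-ErSrc cells were used. Per the authors' methods, poly-A RNA reads were aligned with Bowtie2 to reference transcripts, and RSEM gave the deposited expected counts (estimated, not always whole) and the deposited FPKM. The peak lists were deposited by the authors as positions on hg19. The methods name SOAP2 and MACS2, while the submitters' processing notes name BWA and MACS 1.4.2. Library strand is not given in the sources used here, so overlapping and antisense genes cannot be told apart.

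Expected counts were rounded and genes with low counts were filtered in edgeR 4.0.16 (R 4.3.3, filterByExpr), scaled by TMM and fitted with 1 mean per group over 8 libraries, with glmQLFit and glmQLFTest. The methods describe the replicates of each condition as independent biological ones. Total counts were 8099426 and 8100750 in NT and 7658347 and 7533770 in NT + TPL. FPKM are the levels printed, and a floor of 3 counts per library covers counting error only. Of 23604 genes 21077 were matched to annotation by ID and 2384 by accession, and 1052 symbols had several entries and were left out of lists and properties. Genes named were the 12 largest rises and falls with a mean of at least 5 FPKM and no overlap between the libraries of the groups. Named as well were up to 4 strict calls and the 2 most abundant members of each list, the genes the study names and markers. The members and lists were chosen with earlier results of these data known. Alternatives used DESeq2 1.42.0, limma 3.58.1, other scalings and filters, and leaving out each library. Scripts were tested on simulated data. Replicate numbers were not used to pair the libraries. The correlation of deviations from the group means lay between -0.333 and 0.188. With 2 replicates per group it cannot settle whether the libraries were paired.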

Additional observations from a re-analysis of the deposited data

Results flagged for a closer look

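In 4 of the 189 gene entries named by the rule, the effect of TPL differed between TAM and NT cells by a test of the difference itself, an interaction term of the same edgeR fit with Benjamini-Hochberg adjustment over all genes. The log2 fold change of KRT6B, a keratin of wounded epidermis, was higher in TAM cells by 3.799 (adjusted p = 0.0029). That of FST, the activin antagonist follistatin, was higher in TAM cells by 3.421 (adjusted p = 0.0378), and that of LAMB3, a laminin chain, by 2.407 (adjusted p = 0.0492). For PFKFB3, a regulator of glycolysis, the difference was -2.08 (adjusted p = 0.0348). In all 4 the change was smaller in size in TAM cells. Many of the 189 entries were named for a large change in NT cells, and the difference uses the same NT libraries. The choice of genes thus leans towards such differences, and the share of all genes past this threshold is not given here. Each group holds 2 libraries.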

How the results depend on the processing

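At the strict rule, 206 rises and 460 falls became 956 and 1598 with DESeq2, 437 and 998 among genes with at least 10 counts in every library, 682 and 1322 with entries of a symbol summed, and 0 and 0 when only the NT and NT + TPL libraries were fitted, where 1768 rises and 2311 falls passed an adjusted p of 0.05. Equal GAPDH gave 99 rises and upper quartile scaling 305 falls. An adjusted p of 0.05 gave 2919 and 3355 alone and 1658 and 1918 with a log2 fold change of at least 1.2. Leaving out each library gave 0 to 74 rises and 0 to 139 falls. With the replicate block there were 0 and 0 strict calls, and 2377 and 3020 at an adjusted p of 0.05. Whether the replicate numbers pair the libraries is not known. A crossed replicate block, chosen after seeing the data, gave 34 rises and 64 falls. The causes of these differences were not tested. Of 189 named entries none reversed, and between 147 (equal GAPDH) and 187 (library size only) kept direction and side of the threshold. Each group holds 2 libraries, and genes at or near 0 in a group have no measured fold, only a bound.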

Other observations

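Some genes that rose from low levels lie just after an expressed gene on the same strand. Among single-entry genes with an annotated start, 23 of 185 strict rises (12.4%) began within 5000 bases after the end of a gene with a mean of at least 5 FPKM, against 575 of 8379 genes past neither rule (6.86%), 28 of 431 strict falls (6.5%) and 7.43% of all tested. Among genes under 1.5 FPKM in TAM cells with DMSO, which share no library with the comparison, the shares were 14 of 66 strict rises (21.2%) and 4.84% of genes past neither rule. Genes so low with DMSO could enter the test through their TPL counts. AOC2 begins 820 bases after PSME3, a proteasome activator gene that fell by 1.29 on the log2 scale (edgeR adjusted p = 0.00258), and AOC3 begins 477 bases after AOC2. PYGM begins 4632 bases after SF1, a splicing factor gene that fell by 1.13. WNK4, a kinase of salt transport, went from a mean of 0.245 to 7.24 FPKM and begins 1011 bases after VPS25. CFAP53, of cilia, went from 0.795 to 10.2 FPKM and begins 387 bases after MBD1, and HSD17B7 begins 3297 bases after DDR2, which also rose. These genes were picked after their values were seen, the shares carry no test, and reads that run on from the gene before could not be told apart from the gene's own.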
